A study of Arabidopsis thaliana with 15 samples.

Results

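The KRP genes (KIP-RELATED PROTEIN) of Arabidopsis thaliana encode inhibitors of cyclin-dependent kinases (CDKs), and the peaks at these genes were described in chromatin immunoprecipitation and sequencing (ChIP-seq) of the transcription factors MYB3R1 and MYB3R4. The family was taken by locus identifier, KRP1 to KRP7, which is 7 of the 27444 nuclear protein-coding genes in the gene table. Chromatin came from dissected inflorescence meristems, the shoot tips of plants that had just bolted in long days (16 h light and 8 h dark). An antibody against GFP (ab290) was used throughout. The 3 groups were GFP-MYB3R1 under the MYB3R1 promoter (3 libraries), GFP-MYB3R4mNES under the MYB3R4 promoter (2 libraries) and GFP-MYB3R4 under the MYB3R4 promoter (3 libraries). All are labelled as Col0 plants. The labels do not spell the suffix mNES out; NES commonly stands for nuclear export signal. Since each protein had its own promoter, a difference between MYB3R1 and MYB3R4 libraries cannot be told apart from one in where or how strongly the transgene was expressed. ChIP from untagged plants was not analysed here.

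KRP proteins bind cyclin-CDK complexes, mostly those of CDKA;1 with D-type cyclins, and hold back the entry into S phase. They resemble animal p27Kip1 in a short C-terminal stretch, and ubiquitin ligases such as the F-box protein FBL17 remove them before DNA replication. In the shoot meristem KRP4 is known for linking cell size to the start of S phase. MYB3R proteins are known for their role at genes of G2 and mitosis, MYB3R4 as an activator and MYB3R1 as both an activator and a repressor.

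A KRP gene was counted as bound in a library when the summit of a peak lay from 1000 bp outside to 200 bp inside either gene end. The gene table gives no strand, so the ends are named here by their coordinate, lower or higher, and not as start and stop of the gene. Of the 7 genes, 6 were bound in at least 1 of the 8 libraries. KRP7 was bound in 4 libraries, KRP6 in 3, KRP1 in 2, and KRP2, KRP3 and KRP4 in 1 each. KRP5 was bound in none, as were 32.1% of all nuclear protein-coding genes. The 16 peaks behind these calls had fold enrichments over input at the summit, as the authors deposited them, between 1.83 and 5.54. Each lay between 2 and 677 bp from a gene end, 9 outside the gene and 7 inside it.

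**Figure D1:**
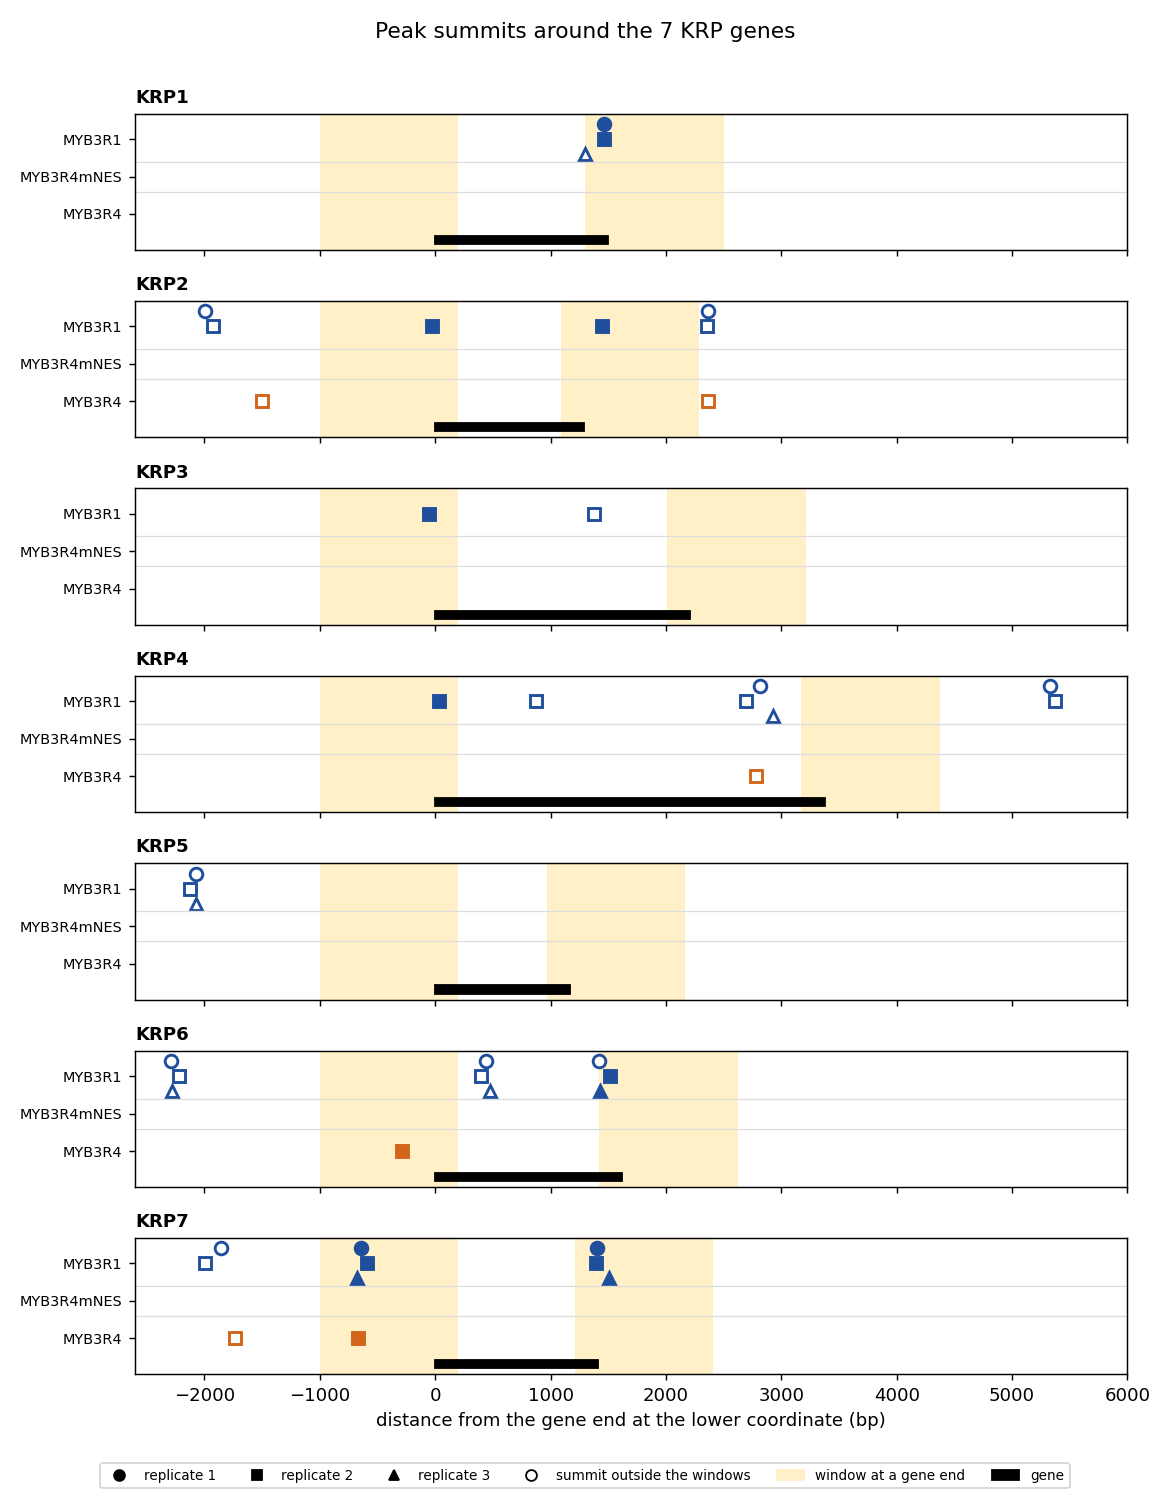
Peak summits around KRP1 to KRP7, by distance in bp from the gene end at the lower coordinate. Rows within a panel are the MYB3R1, MYB3R4mNES and MYB3R4 libraries, shapes are replicates, filled symbols lie in a window (shaded), open symbols lie outside both windows, and the black bar is the gene. KRP7 has a MYB3R1 summit of every replicate at both ends, KRP5 has none in a window, and the MYB3R4mNES rows are empty in all 7 panels.

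The libraries differed in how many peaks they held. The longest list bound the most KRP genes, while lists of 11478 and 7089 peaks (MYB3R1 replicates 1 and 3) and of 2717 peaks (MYB3R4 replicate 2) each bound 2. MYB3R1 lists held 11478, 19655 and 7089 nuclear peaks in replicates 1, 2 and 3. MYB3R4mNES lists held 227 and 256, and MYB3R4 lists 786, 2717 and 456. Read depth is unknown, and a gene without a peak is one not called in that list. Each count is therefore set beside its background, the share of all nuclear protein-coding genes bound in the same way, and counts at equal list length follow further on.

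MYB3R1 replicates 1, 2 and 3 bound 2, 6 and 2 KRP genes. These are 28.6%, 85.7% and 28.6% of the family, where 43.6%, 65.9% and 29.5% of all genes were bound. MYB3R4mNES replicates 1 and 2 bound 0 KRP genes each, where 0.612% and 0.747% of all genes were bound. MYB3R4 replicates 1, 2 and 3 bound 0, 2 and 0, where 1.29%, 9.12% and 1.3% of all genes were bound. In MYB3R4 replicate 1, 35.4% of summits lay in some gene's window, against 31.2% after the genes were shifted by 10000 bp. A missing call in that library therefore carries little weight, here and in the target counts below. Replicate 2 of MYB3R1 and replicate 2 of MYB3R4 held the longest lists of their groups and the most KRP genes.

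When a call in 2 or more libraries of a group was asked for, 3 KRP genes (KRP1, KRP6 and KRP7) were MYB3R1 targets, which is 42.9% of the family beside a background of 44.8%. With the full lists and both gene ends, the family's share was thus close to the background. Other settings gave shares near, above or below the background, and with 7 genes a single gene is 14.3% of the family. With each summit given to the nearest gene end alone, 3 of 7 KRP genes were MYB3R1 targets against 31% of all genes. With MYB3R1 lists at 7089 peaks, the shortest MYB3R1 length, 3 were against 29.8%, and at 2717 peaks 2 were against 12.3%. At a -log10 q of at least 10, 2 (28.6%) were against 25.1%, and at a -log10 q of at least 5, 3 were against 40.6%. With 500 bp outside the gene 3 were against 37.5%, and with 300 bp inside it 3 were against 45.9%. With 2000 bp outside the gene, or any part of a peak counted, 5 were against 54.4% and 50.5%. No KRP gene was a target of MYB3R4mNES (background 0.434%) or of MYB3R4 (background 1.4%). No member was bound in every MYB3R1 library and in no MYB3R4 library, which 21.2% of all genes were. KRP7 was the 1 member bound in every MYB3R1 library (background 26.9%), and 0 members were bound in every MYB3R4 library (background 0.663%). KRP6 and KRP7 were bound in MYB3R4 replicate 2 and in neither of the other MYB3R4 libraries, a pattern of 7.92% of all genes. Without MYB3R1 replicate 2, 1 KRP gene (KRP7) was left as a MYB3R1 target, which is 14.3% of the family against 27.2% of all genes bound in both replicates 1 and 3.

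On average 46.3% of all nuclear protein-coding genes were bound in MYB3R1 libraries, 3.90% in MYB3R4 and 0.680% in MYB3R4mNES libraries. For the KRP genes the mean shares were 47.6%, 9.52% and 0%. The differences in counts below were not tested against these backgrounds, which differ between groups too. Between groups, MYB3R1 libraries bound 3.33 ± 2.31 KRP genes and MYB3R4 libraries 0.667 ± 1.15 (SD, n = 3 each). The difference of 2.67 genes was not larger than the spread between libraries by an exact permutation test (two-sided, p = 0.30, adjusted over 3 comparisons 0.45; the smallest p for 3 against 3 is 0.10). MYB3R1 replicates 1 and 3 and MYB3R4 replicate 2 all bound 2, so the groups met there. Without MYB3R1 replicate 2 the difference was 1.33 genes. The files have 2 styles of name, a possible library batch. Under 1 style, 2 and 6 KRP genes were bound in MYB3R1 replicates 1 and 2, against 0 and 2 in MYB3R4 replicates 1 and 2. In the other, MYB3R1 replicate 3 bound 2, and MYB3R4mNES replicates 1 and 2 and MYB3R4 replicate 3 bound 0. MYB3R1 libraries stood against 0 in both MYB3R4mNES libraries, a difference of 3.33 genes (exact permutation p = 0.20, which is the smallest for 3 against 2, adjusted 0.45). MYB3R4mNES and MYB3R4 libraries differed by -0.667 genes (exact permutation p = 1.00, adjusted 1.00), and this rests on MYB3R4 replicate 2, without which the difference was 0.

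**Figure D2:**
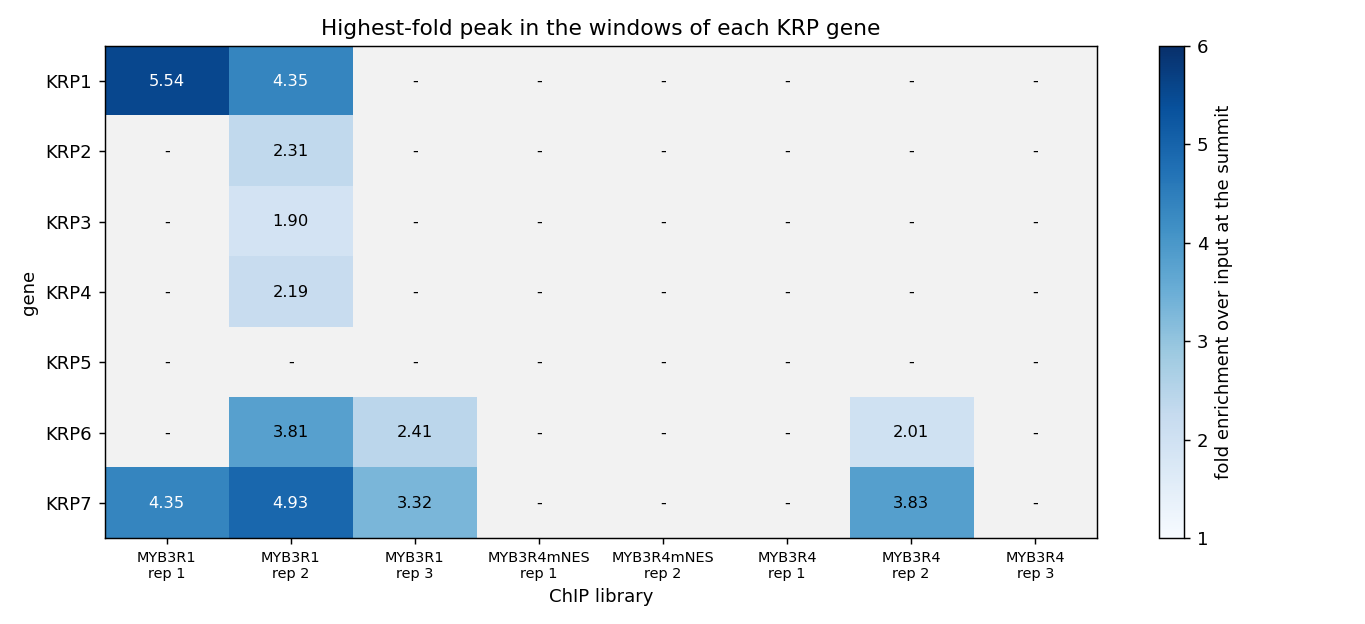
Fold enrichment over input at the summit of the highest-fold peak in the windows of each KRP gene (rows) in each library (columns, MYB3R1, MYB3R4mNES and MYB3R4 from left to right); a dash marks a gene with no such peak. The values are the authors' own for each peak and rank peaks within a column; KRP7 is filled in all 3 MYB3R1 columns and in MYB3R4 replicate 2.

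KRP7 (AT1G49620, also ICK5, an inhibitor known from the male germline, where FBL17 removes it) was bound in the most libraries of the family. It had a site at each end of the gene. At the lower end, summits lay 643, 588 and 677 bp outside the gene in MYB3R1 replicates 1, 2 and 3, and 671 bp outside it in MYB3R4 replicate 2. These 4 summits fell within 89 bp of each other on chromosome 1, from position 18364659 to 18364748 (TAIR10). There the authors' fold enrichment was 3.49 for MYB3R1 replicate 1, 4.93 for replicate 2, 2.34 for replicate 3, and 3.83 for MYB3R4 replicate 2.

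That MYB3R4 peak of KRP7 spanned 1404 bp and was the 47th strongest of 2717 by -log10 p, with a -log10 q of 36.1. Its fold enrichment was at percentile 98.3 of that list. In the MYB3R1 lists the peak at the same site ranked 3384th of 11478, 1499th of 19655 and 2924th of 7089. Ranks in lists of unequal length are given as a description only. In MYB3R4 replicates 1 and 3 the KRP7 locus had no peak within 2500 bp of the gene.

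At the higher end of KRP7, the 3 MYB3R1 summits lay 2 and 12 bp inside and 100 bp outside the gene in replicates 1, 2 and 3, with fold enrichments of 4.35, 4.59 and 3.32. No library of the other groups had a peak there. These summits also fell in the window of PREP2 (AT1G49630), a gene for a protease of organelles whose nearer end lies 845 bp further on. The peak may thus belong to either gene. The site at the lower end was shared with no other gene. Another stretch with peaks, of MYB3R1 replicates 1 and 2 and MYB3R4 replicate 2, lay 1734 to 1999 bp outside the lower end and was called for the neighbour AT1G49610.

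KRP6 (AT3G19150, ICK4, likewise known from the germline) was bound in MYB3R1 replicates 2 and 3 and in MYB3R4 replicate 2, with the summits in the windows at opposite ends of the gene. The MYB3R1 summits lay at the higher end, 108 bp inside the gene in replicate 2 (fold enrichment 3.81) and 188 bp inside in replicate 3 (2.41). Replicate 1 had a summit at the same site, 204 bp inside (3.60), which missed the window by 4 bp. So all 3 MYB3R1 libraries had a peak at this site, within 96 bp, and the call in 2 of them reflects where the window ends. With the window reaching 300 bp into the gene, KRP6 was bound in 4 libraries.

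The MYB3R4 summit at KRP6 lay 283 bp outside the lower end (fold enrichment 2.01, percentile 47.2 of its list) and was also in the window of DNF (AT3G19140), a flowering time gene. No MYB3R1 library had a summit at that place, but the MYB3R1 replicate 2 peak from 6615353 to 6617058 on chromosome 3 held the whole MYB3R4 peak, from 6615839 to 6616334, with its summit 399 bp inside the gene. The nearest MYB3R1 summits, of all 3 replicates, lay inside KRP6 at 399 to 476 bp from the lower end, with fold enrichments between 1.88 and 3.38, and were outside both windows.

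KRP1 (AT2G23430, ICK1, which lowers division rates when overproduced) had the highest in-window fold enrichment of the family in MYB3R1 replicate 1, 5.54, percentile 92.9 of that list. It was 4.35 in replicate 2, where KRP7 stood higher at 4.93. Both KRP1 summits lay near the higher end on chromosome 2, 33 and 40 bp inside the gene, at positions 9978057 and 9978050. Replicate 3 had its summit 204 bp inside (fold enrichment 2.32) and so missed the window by 4 bp. The peak was shared with no other gene, and neither MYB3R4mNES nor MYB3R4 libraries had a peak within 2500 bp of KRP1.

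KRP2, KRP3 and KRP4 were bound in MYB3R1 replicate 2 and in no other library, which 20.6% of all genes were. The 4 peaks behind these calls were in the lower part of that longest of the lists by fold enrichment. KRP2 (AT3G50630, ICK2, known from lateral root initiation) had summits 25 bp outside its lower end (fold enrichment 2.31, percentile 31.6 of the list) and 153 bp outside its higher end (1.83, percentile 8.39). KRP3 (AT5G48820, ICK6) had a summit 50 bp outside its lower end (1.90, percentile 11.3 of the list). KRP4 (AT2G32710, ICK7) had a summit 35 bp inside its lower end (2.19, percentile 26.0).

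**Figure D3:**
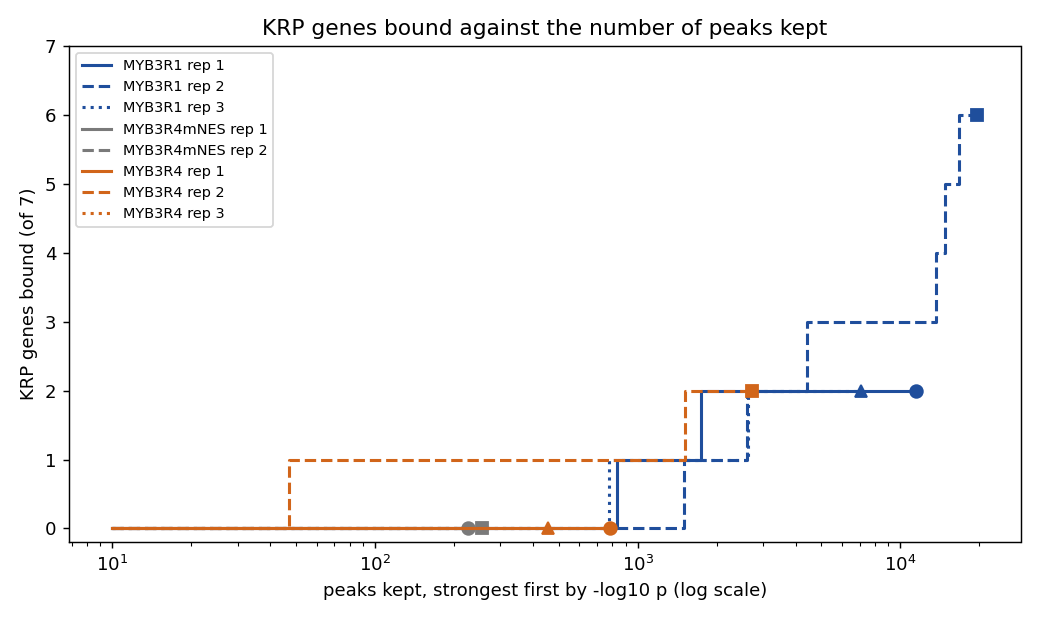
KRP genes bound (of 7) as peaks of a library are added from the strongest by -log10 p (log axis); a symbol marks the end of each list. With 2717 peaks kept, the length of the longest MYB3R4 list, MYB3R1 replicates 1, 2 and 3 and MYB3R4 replicate 2 each stand at 2 genes, and the step of MYB3R1 replicate 2 beyond 3 genes comes from rank 13655 on.

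Ranked by -log10 p, KRP7 and KRP1 entered the lists of MYB3R1 replicates 1 and 2 first, and KRP7 and KRP6 that of replicate 3, which KRP1 did not enter. KRP7 was at ranks 1737, 1499 and 775 in replicates 1, 2 and 3, and KRP1 at 832 and 2605 in replicates 1 and 2. KRP6 entered at 4431 in replicate 2 and 2640 in replicate 3. KRP2, KRP4 and KRP3 entered replicate 2 at 13655, 14753 and 16767 of 19655. With each MYB3R1 list at the 2717 strongest peaks, MYB3R1 libraries bound 2 KRP genes each and MYB3R4 replicates 1, 2 and 3, at full length, 0, 2 and 0. The 2 genes were KRP1 and KRP7 in MYB3R1 replicates 1 and 2. In MYB3R1 replicate 3 and MYB3R4 replicate 2 they were KRP6 and KRP7. In each library 2 genes are 28.6% of the family. At that length 12.5%, 12.9% and 13% of all genes were bound in MYB3R1 replicates 1, 2 and 3, and 9.12% in MYB3R4 replicate 2. With 227 peaks in every list, the length of the shortest, MYB3R1 libraries bound 0 KRP genes and the only call left was KRP7 in MYB3R4 replicate 2, so that the difference turned to -0.333 (exact permutation p = 1.00).

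KRP4 and KRP2 also had repeated peaks that the windows did not take. At KRP4, which overlaps the cytochrome b5 gene CB5-B (AT2G32720) by 926 bp, summits of MYB3R1 replicates 1, 2 and 3 and of MYB3R4 replicate 2 fell within 232 bp of each other, 446 to 678 bp inside the higher end of KRP4. Fold enrichment there was 4.09, 4.77 and 2.07 for MYB3R1 replicates 1, 2 and 3, against 1.78 for MYB3R4 replicate 2. This site lay inside both genes and was called for neither. Counting any part of a peak in the window, KRP4 was bound in all 3 MYB3R1 libraries.

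At KRP2, summits of MYB3R1 replicates 1 and 2 and of MYB3R4 replicate 2 lay 1077, 1067 and 1080 bp outside the higher end, just past the window and within 13 bp of each other. Their fold enrichments were 3.30, 3.75 and 2.38. With a window of 2000 bp KRP2 was bound in these 3 libraries, and the summits of MYB3R1 replicate 1 and MYB3R4 replicate 2 were called for the next gene on that side, AT3G50640.

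KRP5 (AT3G24810, ICK3, known for promoting endoreduplication in growing root cells) stayed unbound under every setting tried. The nearest summits belonged to MYB3R1 replicates 1, 2 and 3, 2076, 2126 and 2073 bp outside its lower end, with fold enrichments of 5.56, 6.05 and 2.85. They were called for PRT1 (AT3G24800), a ubiquitin ligase gene of the N-degron pathway.

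Taking all summits within 2500 bp of the 7 genes and joining those less than 250 bp apart, there were 20 sites. Summits of at least 3 libraries made up 10 of them, and 8 came from a single library. In the 10 repeated sites the summits spread over 13 to 265 bp (median 92.5 bp). Only 2 of these 10, both at KRP7, had every summit in a window, and 6 had none there. MYB3R4 replicate 2 had 6 such summits, at KRP2, KRP4, KRP6 and KRP7, and 4 of the 6 lay at a site with MYB3R1 summits too. All 6 of these MYB3R4 peaks overlapped a MYB3R1 peak by at least 1 bp. Each overlapped a peak of MYB3R1 replicate 2, whose 19655 peaks bound 65.9% of all genes. How many of all 2717 MYB3R4 replicate 2 peaks overlap or share a site in this way was not counted. MYB3R4 replicates 1 and 3 and both MYB3R4mNES libraries had 0 peaks within 2500 bp of any KRP gene.

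**Figure D4:**
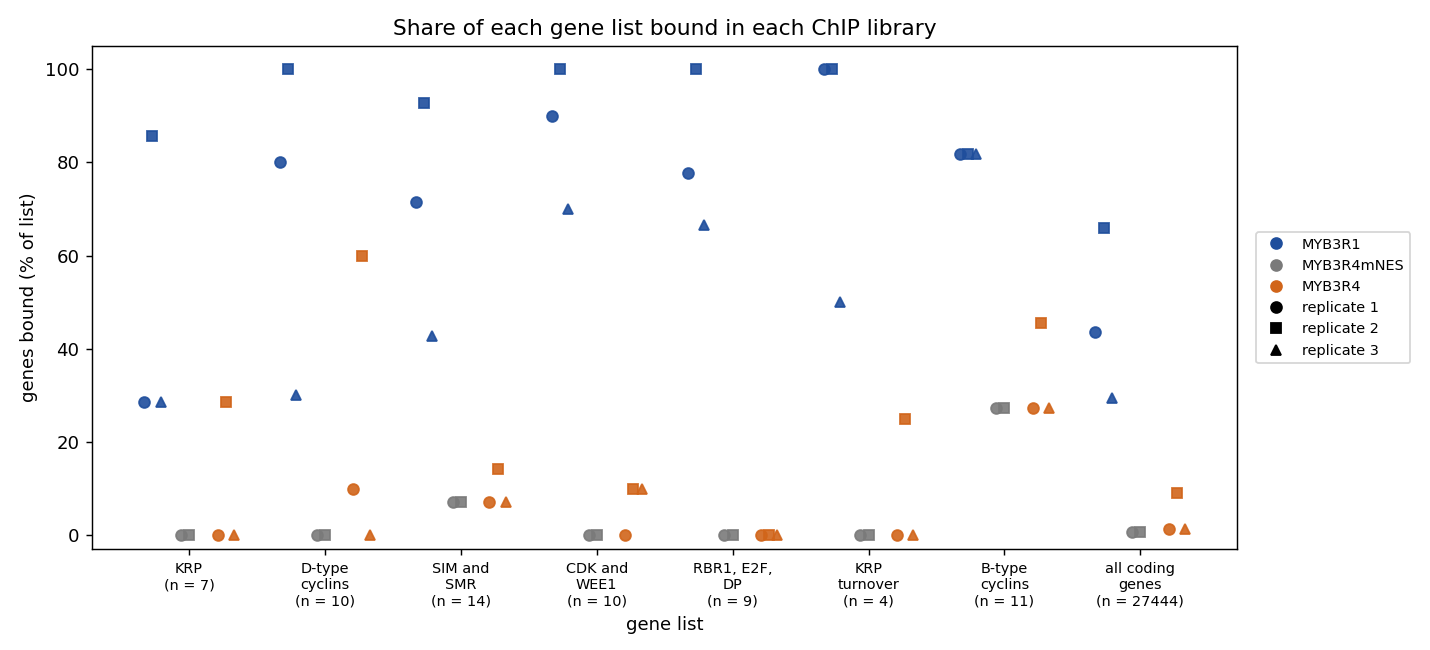
Percent of each gene list bound in each library, with MYB3R1 libraries left, MYB3R4mNES in the middle and MYB3R4 right within a list, and replicates by shape. The KRP list stands at 28.6%, 85.7% and 28.6% in MYB3R1 libraries, beside 43.6%, 65.9% and 29.5% of all coding genes.

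The other cell cycle lists had larger shares of MYB3R1 targets than the KRP genes, which is a description with no test. The list of CDK genes includes the CDKB genes and WEE1, which act in G2 and mitosis. MYB3R1 targets were 8 of 10 D-type cyclins, which form the complexes that KRP proteins inhibit, 10 of 14 genes of the SIAMESE family of CDK inhibitors, 9 of 10 CDK genes and WEE1, 7 of 9 genes of RBR1, E2F and DP, and all 4 genes of ubiquitin ligases linked to KRP or cell cycle protein turnover. These compare with 3 of 7 KRP genes and 44.8% of all genes. B-type cyclins of mitosis, the known MYB3R targets, had 9 of 11. MYB3R4 targets were 0 of 7 KRP genes, 0 of the D-type cyclins, 1 of the SIAMESE family, 1 of the CDK genes, 0 of RBR1, E2F and DP, 0 of the turnover genes and 3 of the B-type cyclins. Of all genes 1.4% were MYB3R4 targets, so a count of 0 in lists this short says little about the list.

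FBL17 (AT3G54650), whose product targets KRP6 and KRP7 in pollen, had fold enrichments of 8.73, 7.98 and 5.58 in MYB3R1 replicates 1, 2 and 3 and no peak in the other groups. In each of these 3 lists that was above the highest KRP value, which was 5.54, 4.93 and 3.32. RKP (AT2G22010), a ubiquitin ligase gene linked to KRP1, reached 3.54, 4.12 and 2.20 fold in the same 3 MYB3R1 libraries, and 2.29 fold in the second MYB3R4 library. The remaining turnover genes had lower values, SKP2A 2.56 and 3.36 and SKP2B 2.90 and 3.70 in MYB3R1 replicates 1 and 2. Neither was bound in replicate 3. RKP, SKP2A and SKP2B stayed below the highest KRP value in each MYB3R1 list. Among the SIAMESE family, AT5G40460 was bound in all 8 libraries and SMR4 (AT5G02220) in 4, as many as KRP7. CDKA;1 (AT3G48750), the main partner kinase of the KRP proteins, was bound in MYB3R1 replicate 2 alone, with a fold enrichment of 2.02. It is named for its role after its values were seen.

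The 3 genes whose pattern was most like that of KRP7 were KNAT4 (AT5G11060, a homeobox gene), CAT2 (AT4G35090, a catalase) and ECA4 (AT1G07670, a calcium pump). Likeness was the Euclidean distance of the percentile of the highest-fold peak over the 8 libraries, with 0 where a gene had no peak, and came to 10.1, 10.8 and 10.8. All 3, like KRP7, had peaks in all 3 MYB3R1 libraries and in the second MYB3R4 library and in no other. Choosing genes by this distance favours that pattern, and how many of all genes have it was not counted. In these 4 libraries KRP7 had percentiles of 83.4, 91.6, 89.8 and 98.3, and KNAT4 had 85.5, 96.2, 89.2 and 89.6. ChIP peaks give binding of the tagged protein near a gene and say nothing of how much KRP transcript the meristem made.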

How the data were processed

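The members and the gene lists were chosen with earlier results of these data known. The 8 ChIP libraries each had 1 list of peaks; the 7 input samples were not used here. Per the file names, the authors extended reads to 400 bp and called peaks against input, library by library. The submitters' processing notes name TAIR10 as the build, and as tools Trimmomatic, Picard, FastQC and Bowtie2 without versions; they name no peak caller. The deposited columns hold a ratio (fold enrichment at the summit over input), the −log10 p-value and −log10 q-value of the peak, a whole-number score of 10 times the −log10 q-value, and, in the other column, how far the summit lies from the start of the peak. Every deposited peak passed q = 0.05. Which input served which library is not given, MYB3R4 replicate 3 has no input labelled with its number, and depth is unknown.

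Genes came from a RefSeq table of TAIR10.1, whose nuclear positions were taken as those of TAIR10. A summit lay in some gene's window for 35.4% to 82.3% of peaks per library, and for 31.2% to 50.8% after the genes were shifted by 10000 bp. Both lowest values were those of MYB3R4 replicate 1, whose summits thus lay in windows little more often than after the shift. Organelle peaks were left out. Targets were genes with calls in 2 or more libraries of 1 group. All 65 identifiers of the 7 lists were found; the lists were written from memory. Library counts were compared by exact permutation tests (scipy 1.17.1, two-sided), with Benjamini-Hochberg adjustment over 3 comparisons. The window calls were tested on simulated data. Whether replicates were separate plants is not labelled, and p-values then measure only the spread between these libraries, which may be technical. Named genes were all 7 KRP genes, up to 4 members of each other list bound in the most libraries, neighbours that share a KRP peak, and the 3 genes most like the most often bound member; the text names part of them. No genome was used, so no sequence is shown.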

Additional observations from a re-analysis of the deposited data

How the results depend on the processing

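No setting made a comparison pass 0.05, which designs of 3 against 3 or 3 against 2 libraries cannot reach. The difference in KRP genes bound per library, MYB3R1 minus MYB3R4, stayed positive in 19 alternatives and turned to -0.333 with lists of equal length (227 peaks). There the difference of MYB3R1 minus MYB3R4mNES was 0, no KRP gene was a MYB3R1 target (0, against 1.16% of all genes) and 1 call remained of 12 pairs of gene and library. With a library left out, MYB3R1 minus MYB3R4 ran from 1.33 to 3.33, MYB3R1 minus MYB3R4mNES from 2 to 4, and MYB3R4mNES minus MYB3R4 from -1 to 0. MYB3R1 targets then numbered 1 to 2, the lowest without replicate 2. A window of 2000 bp, or any part of the peak counted, gave 5 MYB3R1 targets each, with backgrounds of 54.4% and 50.5% of all genes. With 500 bp outside, KRP7 was no longer bound in MYB3R4 replicate 2. At a -log10 q of at least 10, KRP6 was bound in 1 library in place of 3, KRP3 in 0, and 2 KRP genes were MYB3R1 targets. In the second naming style 2 pairs of gene and library were left, and MYB3R4mNES minus MYB3R4 was 0. Settings chosen after seeing the data gave 1.67 with MYB3R1 lists at 7089 peaks, 1.33 with them at 2717 peaks, 3.33 with the window 300 bp into the gene, and 2 without replicate 2 of both proteins, for MYB3R1 minus MYB3R4. The replicate block gave differences of 2.67 (exact permutation p = 0.25), -1 (p = 1.00) and 4 (p = 0.50) for MYB3R1 minus MYB3R4, MYB3R4mNES minus MYB3R4 and MYB3R1 minus MYB3R4mNES and changed no call. The smallest p of this paired test is 0.25 for 3 pairs and 0.50 for 2 pairs, so the first and last comparisons stood at that limit. Deviations of same-numbered libraries correlated between -0.0830 and 0.0657 over genes. With lists of such unequal length, these values cannot tell whether same-numbered libraries were handled together. Calls at gene starts alone were not run, since no strand was at hand.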

Other observations

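D-type cyclin genes, whose products are the partners that KRP proteins inhibit, were the listed group most often bound in MYB3R4 replicate 2. There 6 of 10 members (60%) were bound, beside 5 of 11 B-type cyclins (45.5%), 2 of 7 KRP genes (28.6%) and 9.12% of all genes. The 6 were CYCD2;1, CYCD3;1, CYCD3;2, CYCD3;3, CYCD4;1 and CYCD5;1, named after their values were seen. Their fold enrichments in that library lay between 1.87 and 2.29 (percentiles 24.7 to 75.5 of the list). The values were 3.83 at KRP7 (percentile 98.3) and 2.01 at KRP6 (percentile 47.2). MYB3R4 replicate 1 bound 1 D-type cyclin gene, MYB3R4 replicate 3 and both MYB3R4mNES libraries bound 0, and no other library of the group repeated the 6. Of the 10 D-type cyclin genes, MYB3R1 replicates 1, 2 and 3 bound 8, 10 and 3, where 43.6%, 65.9% and 29.5% of all genes were bound.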
